A study of Mus musculus with 10 samples.

Results

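Activating transcription factor 4 (ATF4) is the transcription factor of the integrated stress response. When a stress kinase phosphorylates the initiation factor eIF2, most translation slows while ATF4 mRNA is translated more, and ATF4, paired with C/EBP proteins, switches on genes for amino acid supply, glutathione breakdown, restraint of mTORC1 and further transcription factors. Damaged mitochondria are a known trigger of this response. The 10 genes described here are effectors of ATF4 other than amino acid transporters: the transcription regulators Atf3, Atf5, Cebpg and Nupr1, the enzymes Asns and Chac1, the mTORC1 and translation inhibitors Sesn2, Ddit4 and Eif4ebp1, and the lipoprotein receptor Vldlr. They were chosen by gene symbol, and all 10 were found among the 15075 genes of the deposited table.

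Polyadenylated RNA of brown adipose tissue (BAT) was sequenced from 10 mice, 5 Control and 5 AdCKO, each giving its own library, so p-values measure the spread between mice. The mice were C57BL/6, aged 20 weeks and kept at room temperature. AdCKO mice are homozygous for a floxed exon 4 of Crls1, the cardiolipin synthase gene, and carry Adipoq-Cre, which is active in brown and white adipocytes. Control mice, labelled wild-type, carry the same floxed alleles without Cre, so the Cre transgene itself differs between the groups along with the deletion, and cells of AdCKO BAT other than adipocytes keep intact Crls1. Crls1 fell to 20.5% of its Control mean, and its libraries did not overlap between the groups.

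Values are normalized reads per kb of counted exon, so levels can be compared between genes. None of the deposited values was 0 and the smallest was 0.0532. Fold changes are differences of log2(value + 1), a scale that understates the change of low genes such as Chac1. Genes averaging at least 10 in Control or AdCKO were tested, 11244 in all, and a gene was called when limma gave a Benjamini-Hochberg adjusted p under 0.01, and all 10 effector genes passed that filter on level. The tissue carried all 8 listed brown adipocyte markers, 6 of them lower and none higher in AdCKO, with 3 lower and 1 higher at a common total of all libraries and 1 lower and 1 higher after quantile normalization. Their summed level ranged from 213000 to 241900 in Control mice, and from 132400 to 157500 in AdCKO mice. Most of this sum was Fabp4, with means of 147200 and 108200, which was not called (limma adjusted p = 0.0205). All 7 tested macrophage markers and all 6 fibroblast markers were higher in AdCKO, with summed levels, over all 8 listed macrophage markers, of 426.5 to 1204 against 5726 to 7811, and of 961 to 1244 against 4059 to 5866 for fibroblasts. The listed macrophage marker too low to be tested, Cx3cr1, had means of 5.36 in Control and 5.45 in AdCKO. Most of the macrophage sum was Lyz2, with means of 469.2 and 5196. The summed deposited values of a library were 7615403 to 8171138 in Control and 5419800 to 5843024 in AdCKO, so the scaling matters: with every library set to the same total, 6811 genes were higher and 1098 lower in place of 2879 and 3152, and the median log2 fold change of all tested genes shifted by 0.47. Skeletal muscle markers summed to 90.1 to 119 in Control, to 136 and 122 in AdCKO 3 and 5, and to 6116, 22940 and 8611 in AdCKO 1, 2 and 4. No deposited marker value was 0, and the part of these other cells in the results was not tested except where given. In such bulk tissue, fewer cells of a type and less RNA per cell cannot be told apart.

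The effector genes did not move together in AdCKO BAT. Atf3, Chac1, Atf5 and Nupr1 rose, Vldlr and Eif4ebp1 fell, and Asns, Ddit4, Sesn2 and Cebpg were not called. Thus 4 of 10 were higher, against 25.6% of all tested genes, and 2 of 10 were lower, against 28.0%. In total 60% were called, against 53.6% of all tested genes, a share near the background. With the same total in every library, 8 of the 10 were higher and 2 lower. Each gene's distance from the shifted median of all genes, 4.22 for Atf3, 0.20 for Asns, 0.07 for Sesn2 and -0.84 for Eif4ebp1 among them, was close to its value here. That closeness follows from the arithmetic, since a constant per library moves all genes by nearly the same amount. After quantile normalization, which can move them apart, these distances were 4.19, 0.425, 0.13 and -0.32. The 6 called genes were also the 6 whose libraries did not overlap between the groups, and 50.9% of all tested genes had such groups, 24.5% with AdCKO above Control and 26.4% with AdCKO below. The median log2 fold change of the 10 was 0.23, beside -0.01 for all tested genes. The individual sizes ranged from a fall of Eif4ebp1 to 54.6% of its Control mean to a rise of Atf3 to 19.6 times its Control mean.

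**Figure D1:**
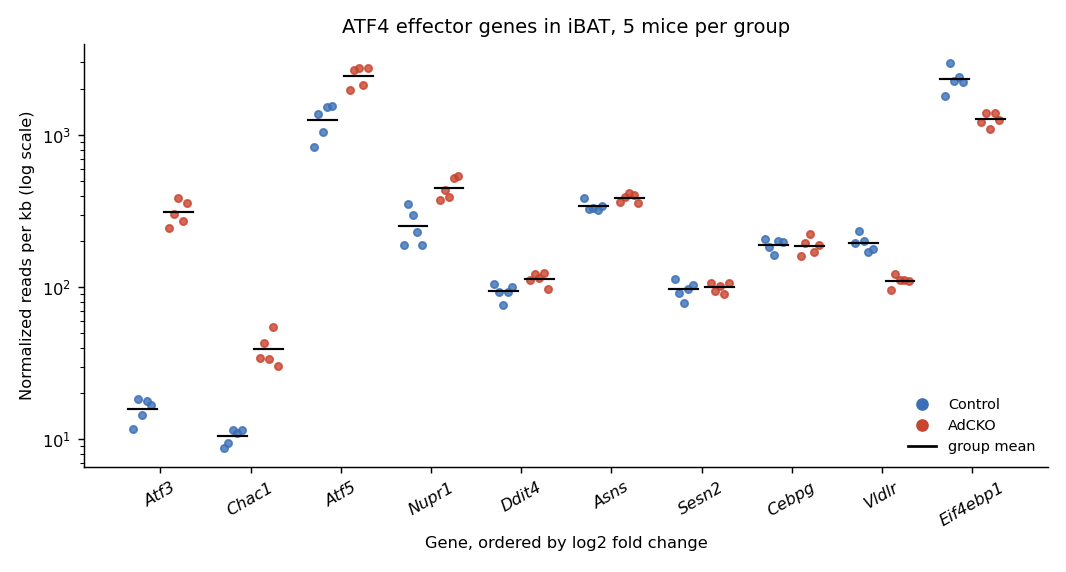
Normalized reads per kb (log scale) of the 10 ATF4 effector genes in each of 5 Control (blue) and 5 AdCKO (red) mice, with black bars at the group means and genes ordered by log2 fold change. Atf3 lay between 11.7 and 18.5 in Control and between 244.7 and 382.7 in AdCKO, while the groups of Ddit4, Asns, Sesn2 and Cebpg overlapped.

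ATF4 with a C/EBP partner binds a composite DNA element, and for this reason the promoters were searched for it. The letters searched were TGATGNAA on either strand, from 250 bases before to 50 bases after the annotated transcription start (mm9). They were found at 5 of the 10 genes and at 2.35% of the 15075 genes of the table. The 10 genes were listed as effectors of ATF4, which binds this element, so their larger share is no independent result. The 5 matches, each with 11 bases on either side and read 5′ to 3′ on the strand of the gene, are shown to let them be compared with the response of each gene, with the match in capitals:
Atf3: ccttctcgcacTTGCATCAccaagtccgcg
Chac1: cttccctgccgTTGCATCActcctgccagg
Nupr1: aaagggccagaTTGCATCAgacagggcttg
Asns: tcccagccacaTGATGAAActtcccgcacg
Vldlr: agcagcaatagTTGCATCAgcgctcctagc

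The printed stretches lie on mm9 at chr1:193007304-193007333 (minus strand) for Atf3, chr2:119176774-119176803 (plus) for Chac1, chr7:133769076-133769105 (minus) for Nupr1, chr6:7643214-7643243 (minus) for Asns and chr19:27291299-27291328 (plus) for Vldlr. The match begins 110 bases before the start of Atf3, 193 before that of Chac1, 110 before that of Nupr1, 50 before that of Asns and 200 before that of Vldlr. In the GENCODE M1 annotation those of Atf3 and Chac1 fall in no annotated gene. Those of Nupr1, Asns and Vldlr fall in an exon of a transcript of the same gene that starts further upstream. Genes with a match went all 3 ways: Atf3, Chac1 and Nupr1 rose, Asns was not called and Vldlr fell. The 4 genes Atf3, Chac1, Nupr1 and Vldlr held the same 8 letters, TTGCATCA, which is TGATGCAA on the opposite strand, and Asns held the variant TGATGAAA. The longer form ATTGCATCA, which overlaps the shorter motif, was found at Nupr1 alone of the 10, and at 0.126% of all genes. The cyclic AMP response element TGACGTCA was in none of the 10 windows, and in 2.99% of all. In a wider window of 1000 bases on either side of the start, chosen after the data were seen, TGATGNAA occurred at 9 of the 10 genes, all but Ddit4, and at 18.0% of all genes. The same limit on the share of the listed genes holds in this wider window. A match is a description of the letters and not evidence of binding.

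**Figure D2:**
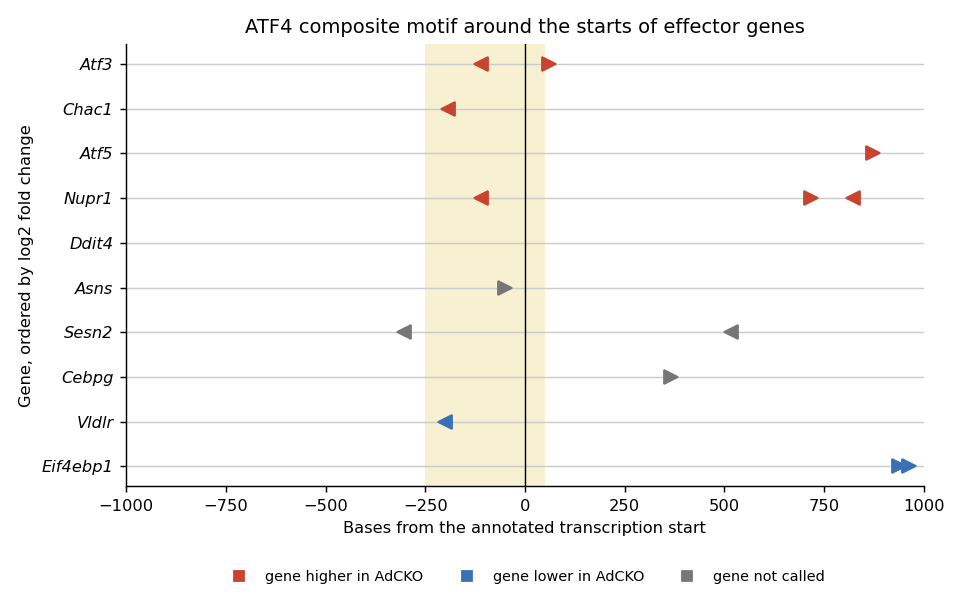
Positions of TGATGNAA matches relative to the annotated transcription start (x axis, bases, with negative values upstream) for the 10 effector genes, ordered by log2 fold change. Triangles point right for a match on the strand of the gene and left for the opposite strand, red, blue and grey mark genes higher, lower and not called in AdCKO, and the shaded band is the window of 250 bases before to 50 after the start; matches in the band occur at Atf3, Chac1, Nupr1, Asns and Vldlr, in all 3 colours.

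Among the transcription regulators, Atf3 encodes a stress-induced bZIP factor that mostly represses its targets (NM_007498, chr1:192994176-193007212 on mm9, minus strand). Its values were 11.7, 18.5, 14.4, 17.8 and 16.9 in Control 1 to 5 and 244.7, 300.4, 382.7, 271.8 and 358.1 in AdCKO 1 to 5. The lowest AdCKO library thus lay far above the highest Control library. The means were 15.9 ± 2.81 and 311.5 ± 57.9 (SD, n = 5 each), which is 4.21 on the log2 scale (SE 0.14 and adjusted p = 1.1e-09 by limma), which ranked 11 from the highest among all tested genes. By level, Atf3 moved from the 36.0 percentile of all genes in the table to the 90.0 percentile. Atf3 is also an immediate early gene, a class that responds to handling of the tissue and is active in macrophages. Of 11 tested immediate early genes, 7 were higher and 1 was lower in AdCKO, and the summed level of all 13 listed genes ran from 727 to 1308 in Control mice and from 1293 to 1815 in AdCKO mice. The part of these and of the macrophage transcripts in the value of Atf3 was not tested.

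Atf5 encodes a bZIP factor close to ATF4 that acts in the mitochondrial unfolded protein response (NM_030693, chr7:52067626-52071028, minus strand). Control 1 to 5 had 830.3, 1372, 1054, 1519 and 1540, and AdCKO 1 to 5 had 1989, 2663, 2762, 2124 and 2738. All AdCKO libraries lay above all Control libraries. The means rose from 1263 ± 310.2 to 2455 ± 368.8, which is 0.98 on the log2 scale (SE 0.17 and adjusted p = 0.000296 by limma), which made Atf5 the most abundant of the 10 in AdCKO. The size of this rise depended on the scaling. After quantile normalization it was 1.44, or 1.52 relative to the median of all genes there. At a common total it was 1.465, or 1.005 relative to the median there. Of the 11 listed chaperones and proteases of the mitochondrial unfolded protein response, 6 were lower, among them Spg7 (log2 fold change -1.13), Trap1 (-1.003) and Afg3l2 (-0.88), and Lonp1 (0.53), the matrix protease, was higher. The median of this list was -0.47. At a common total 5 of the 11 were higher and 4 lower, and after quantile normalization 4 were higher and 6 lower.

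Nupr1 encodes a small chromatin-associated stress protein (NM_019738, chr7:133766760-133768984, minus strand). Its values were 190.3, 350.5, 296.8, 230.4 and 188.9 in Control and 371.2, 433.5, 391.1, 522.3 and 538.8 in AdCKO. The lowest AdCKO library, AdCKO 1, lay just above the highest Control library, Control 2, so the groups were apart by a narrow gap. The means were 251 ± 70.6 and 451 ± 75.9, which is 0.87 on the log2 scale (SE 0.18 and adjusted p = 0.000863 by limma). Its spread between Control mice, at 28.1% of the mean, was the widest of the 10 in that group.

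Cebpg encodes a short C/EBP protein that pairs with ATF4 on the composite element (NM_009884, chr7:35831441-35841585, minus strand). Control libraries had 206, 183, 162, 201 and 198, and AdCKO libraries had 159.6, 194, 222.5, 170.0 and 189.8. The AdCKO values spanned those of Control on either side. The means were 189.9 ± 17.8 and 187 ± 24.3, and the log2 fold change was -0.02, with a 95% interval from -0.24 to 0.19 (limma adjusted p = 0.842). The sign of this value changed with the scaling: it was 0.455 with the same total in every library, where all genes shifted up by about as much, and 0.06 after quantile normalization.

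Of the enzymes, Chac1 breaks down glutathione in the cytosol and is among the most inducible ATF4 targets (NM_026929, chr2:119176978-119180062, plus strand). It was the lowest of the 10 genes in both groups, at 8.77, 9.51, 11.6, 10.97 and 11.6 in Control and 34.3, 43.0, 33.7, 54.5 and 30.4 in AdCKO. Every AdCKO library exceeded every Control library. The means were 10.5 ± 1.27 and 39.2 ± 9.76, which is 1.78 on the log2 scale (SE 0.15 and adjusted p = 7.28e-07 by limma). The widest AdCKO spread of the 10 was that of Chac1, 24.9% of its mean, with AdCKO 4 on top. The wider glutathione list did not share this rise: of 8 tested genes, 2 were higher, Ggt5 (1.00) and Gss (0.40), and 2 were lower, the 5-oxoprolinase gene Oplah (-0.58) and Chac2 (-0.56), with a median of -0.055. The call of Gss was lost in 7 of the 10 fits that left out a single library, with Control 1, 3 or 4 or AdCKO 2, 3, 4 or 5 removed (limma adjusted p = 0.0101 to 0.015), and with AdCKO 1, 2 and 4 all left out neither Gss nor Ggt5 was called. At a common total of all libraries, 5 were higher and none lower.

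Asns encodes asparagine synthetase, the classic gene of the amino acid response (NM_012055, chr6:7625171-7643182, minus strand). Control libraries had 383.8, 328.7, 329.5, 321.6 and 341.8, and AdCKO libraries had 364.6, 388.6, 417.2, 404.2 and 359.0. Control 1 lay inside the AdCKO range and the other Control libraries below it. The means were 341 ± 24.9 and 387 ± 25.0, a ratio of 1.13, and the log2 fold change of 0.18 (95% interval 0.03 to 0.33) was not past the threshold (limma adjusted p = 0.0372). After quantile normalization it was 0.34 (limma adjusted p = 0.00149), which was past it.

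Of the 3 effector genes that encode inhibitors of mTORC1 or of cap-dependent translation, Sesn2, Ddit4 and Eif4ebp1, none rose past the threshold under the authors' normalization. At a common total Sesn2 and Ddit4 did. Sesn2 encodes a leucine sensor that inhibits mTORC1 through GATOR2 (NM_144907, chr4:132048722-132066371, minus strand). Its values were 113.1, 91.2, 78.6, 96.5 and 103.6 in Control and 106.8, 93.7, 101.5, 90.1 and 106.2 in AdCKO. The AdCKO range lay wholly within the Control range. The log2 fold change was 0.05, with a 95% interval from -0.16 to 0.26 (limma adjusted p = 0.655). At a common total it was 0.53 (limma adjusted p = 0.000304), where the median of all tested genes shifted by 0.47. After quantile normalization it was 0.05 (limma adjusted p = 0.648). A processed transcript, Gm12981, overlaps 6089 bases of the Sesn2 locus on the same strand in GENCODE M1, so some reads may not be told apart.

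Ddit4 encodes REDD1, which restrains mTORC1 through the TSC complex and also answers to hypoxia and glucocorticoids (NM_029083, chr10:59412423-59414518, minus strand). Control libraries had 104.6, 93.0, 76.6, 93.3 and 100.9, and AdCKO libraries had 111.0, 121.2, 114.5, 124.7 and 97.3. The AdCKO values lay above all Control values except in AdCKO 5. The means were 93.7 ± 10.8 and 113.7 ± 10.7, and the log2 fold change of 0.28 (95% interval 0.07 to 0.49) was not past the threshold (limma adjusted p = 0.0203). Without AdCKO 5 it was 0.335 and was past it (limma adjusted p = 0.00763), and with AdCKO 1, 2 and 4 left out it was 0.18 (limma adjusted p = 0.282). At a common total the log2 fold change was 0.757 and was past the threshold (limma adjusted p = 1.51e-05). After quantile normalization it was 0.29 and was not (limma adjusted p = 0.0138). The lists of other inducers of Ddit4 were split. Of the hypoxia targets, 4 were higher, among them Slc2a1 (1.21), and 4 were lower, among them Pdk1 (-2.19) and Bnip3 (-1.21). Of the glucocorticoid targets, 2 were higher, among them Fkbp5 (0.85), and 2 were lower, Mt1 (-0.86) and Klf9 (-0.45). The hypoxia targets numbered 4 higher and 3 lower at a common total, and the glucocorticoid targets 4 higher and none lower.

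Eif4ebp1 encodes 4E-BP1, which binds the cap-binding protein eIF4E and blocks initiation until mTORC1 phosphorylates it (NM_007918, chr8:28370799-28386128, plus strand). It was the most abundant of the 10 in Control, at 1810, 2965, 2259, 2398 and 2217, and stood at 1221, 1402, 1099, 1397 and 1247 in AdCKO. Every AdCKO library lay below every Control library. The means fell from 2330 ± 417 to 1273 ± 128, which is -0.86 on the log2 scale (SE 0.12 and adjusted p = 5.28e-05 by limma). The size of this fall depended on the scaling: it was -0.40 after quantile normalization (limma adjusted p = 0.00444), or -0.32 relative to the median of all genes there, and -0.38 at a common total (limma adjusted p = 0.00741). Of 28 listed genes of the mTORC1 pathway, 15 were lower, among them Mtor itself (-0.75), Tbc1d7 of the TSC complex (-0.72) and Eif4g1 (-0.65), and the median was -0.31. This count turned with the scaling, and at a common total 10 were higher and 1 was lower. The list mixes genes that activate mTORC1 with genes that restrain it, such as Tbc1d7, so neither count gives a direction of its activity. Under the authors' normalization the gene of that list called higher was Rragd (1.78), a Rag GTPase gene, which rose from 7.65 to 29.0.

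Vldlr encodes the very low density lipoprotein receptor, which binds lipoproteins that carry apolipoprotein E (NM_001161420, chr19:27291510-27328721, plus strand). Its values were 196.1, 235.1, 199.6, 171.3 and 179.4 in Control and 96.5, 121.2, 112.1, 110.6 and 109.1 in AdCKO. The groups were wide apart, with no AdCKO library above 121.2 and no Control library below 171.3. The means fell from 196 ± 24.6 to 109.9 ± 8.85, or 56.0% of Control, which is -0.83 on the log2 scale (SE 0.09 and adjusted p = 6.75e-06 by limma). At a common total it was -0.35 (limma adjusted p = 0.00221), and after quantile normalization -0.77. Vldlr is also expressed in skeletal muscle, and with AdCKO 1, 2 and 4 left out, the libraries with muscle transcripts, its log2 fold change was -0.81. Of 7 other tested genes for lipoprotein receptors and their partners, 2 were higher, the adaptor gene Dab2 (1.497) and Lpl (0.65), which encodes lipoprotein lipase, and none was lower. Of these 7, 6 were higher and none lower at a common total.

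The order of the levels changed between the groups. In Control it ran Eif4ebp1, Atf5, Asns, Nupr1, Vldlr, Cebpg, Sesn2, Ddit4, Atf3 and Chac1. The neighbours Asns and Nupr1, Nupr1 and Vldlr, Vldlr and Cebpg, and Sesn2 and Ddit4 overlapped between libraries. In AdCKO the order was Atf5, Eif4ebp1, Nupr1, Asns, Atf3, Cebpg, Ddit4, Vldlr, Sesn2 and Chac1, with overlap between Nupr1 and Asns, Asns and Atf3, Ddit4 and Vldlr, and Vldlr and Sesn2. Atf5 and Eif4ebp1 changed places without overlap in either group. Atf3 moved up from rank 9 to rank 5 and Vldlr down from rank 5 to rank 8.

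Most of the effector genes have a close relative in the genome, and comparing the log2 level of each with its paralogue within the same library removes the scaling of the library, apart from the pseudocount. Of 16 pairs, 13 could be compared, since Cebpe was not analysed here and Sesn3 and Lrp8 were too low. The difference between the paralogues changed in 9 of the 13 pairs (exact permutation test, two-sided, Benjamini-Hochberg adjusted over the pairs, threshold 0.05, where the smallest unadjusted p is 0.0079). Atf3 gained 3.71 on the log2 scale against Jdp2, the bZIP gene nearest to it. In Control, Atf3 lay 1.66 ± 0.26 below Jdp2, and in AdCKO it lay 2.05 ± 0.27 above it (SD, n = 5 each, exact p = 0.0079, adjusted p = 0.017). Chac1 gained 2.34 against Chac2, the constitutive glutathione cyclotransferase, and Nupr1 gained 1.36 against Nupr1l (for each, exact adjusted p = 0.017). The Chac2 and Nupr1l genes were themselves lower in AdCKO, with log2 fold changes of -0.56 and -0.49, but at a common total these were -0.09 and -0.04 and were not called. Asns, which was not called by itself, gained 0.66 against Asnsd1 (exact adjusted p = 0.017), and Asnsd1 fell, with a log2 fold change of -0.48 that was not called at a common total.

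The pair of Atf5 and Atf4 did not separate. Atf4 went from 615 to 1423, or up by 1.22 on the log2 scale (limma adjusted p = 6.3e-05), and the difference between Atf5 and Atf4 was 1.03 ± 0.24 in Control and 0.80 ± 0.20 in AdCKO, a change of -0.24 (exact p = 0.13, adjusted p = 0.15). Eif4ebp2 fell as Eif4ebp1 did, with a log2 fold change of -1.05, and the change between them was 0.19 (exact adjusted p = 0.12). Eif4ebp3 rose, from 55.7 to 73.1, a call lost without Control 4 (limma adjusted p = 0.0103) and after quantile normalization (0.016), and Eif4ebp1 lost 1.25 against it (exact adjusted p = 0.017). Cebpg, flat by itself, gained 1.09 against Cebpa (exact adjusted p = 0.017), which fell from 3032 to 1419, and lost 0.86 against Cebpd (exact adjusted p = 0.034), which rose from 31.3 to 55.5, a call lost with AdCKO 1, 2 and 4 left out (limma adjusted p = 0.0304). Against Cebpb its change was 0.51 (exact adjusted p = 0.24). Sesn2 and Sesn1 did not differ in change past the threshold, at -0.17 (exact adjusted p = 0.35). Ddit4 lost 1.10 against Ddit4l (exact adjusted p = 0.029), which stood at 2.87 to 3.82 in Control mice, and at 4.83 to 24.9 in AdCKO mice with its highest values, 24.9 and 15.7, in AdCKO 2 and 4, the libraries with most muscle transcripts. The changes of Cebpg against Cebpd and of Ddit4 against Ddit4l each lost significance when most single libraries were left out, with exact adjusted p of 0.052 to 0.069. After quantile normalization Cebpg gained 0.70 against Cebpa and Eif4ebp1 lost 0.71 against Eif4ebp3, both still past the threshold (exact adjusted p = 0.015).

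**Figure D3:**
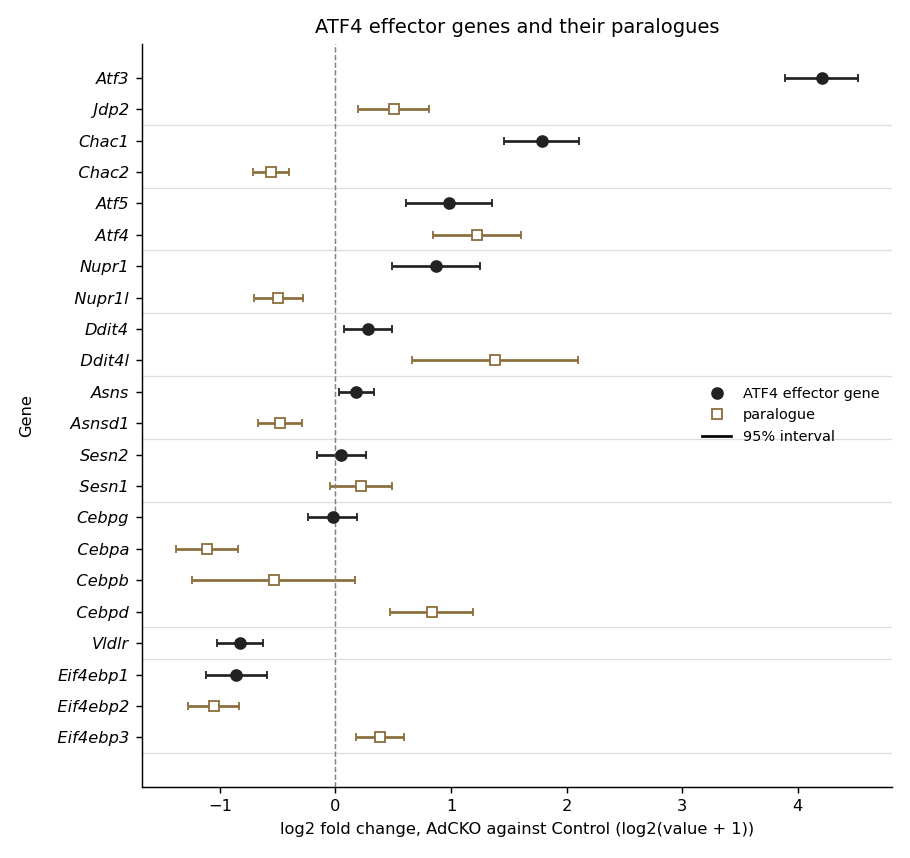
Log2 fold change of AdCKO against Control, on the scale of log2(value + 1), for each ATF4 effector gene (filled circles) and the reported paralogues (open squares) below it, with 95% intervals from limma. Atf3, Chac1 and Nupr1 lie to the right of their paralogues, Atf5 and Atf4 lie close together, and Eif4ebp1 and Eif4ebp2 both lie to the left of 0.

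Other ATF4 targets were set beside the 10 effector genes. Of 25 tested, 22 were higher and 3 were lower, and the median log2 fold change was 1.57, against 0.23 for the 10 effector genes and -0.01 for all tested genes. This list was written with results for several of its genes known, so its count is a description. The smallest p-values in it belonged to Ero1l (2.74), Psat1 (3.80), an enzyme of serine synthesis, and Mthfd2 (3.43), an enzyme of the mitochondrial folate cycle. The study's paper describes Ero1l as a gene activated by CHOP-10, the product of Ddit3. The 3 lower genes were Psph (-0.62), Herpud1 (-0.49) and Vegfa (-0.59), the last named after its value was seen. At a common total 22 were higher and none lower, and with AdCKO 1, 2 and 4 left out 21 were higher and 1 lower. The same 8 letters TGATGNAA stood in the promoter windows of 8 of all 27 listed genes, against 5 of the 10 effector genes. In the core of the integrated stress response, 4 of 10 genes were higher and 2 lower. The 2 lists overlap, since Trib3, Ddit3 and Ppp1r15a were also counted among the other ATF4 targets. Trib3 (3.34), Ddit3 (2.70), Ppp1r15a (2.47) and Atf4 rose, and the eIF2 kinase genes Eif2ak1 (-0.47) and Eif2ak4 (-0.42) fell, while at a common total 7 of the 10 were higher and none lower. Atf3, the most changed effector gene (4.21), exceeded the fold change of each of these core genes. It did not exceed that of every other ATF4 target, of which the highest was 5.45.

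p53 is a further inducer of Sesn2, and its targets were mixed. Of 8 tested, 4 were higher, among them Cdkn1a (1.72), Mdm2 (0.66) and Bax (0.95), and 2 were lower, Phlda3 (-0.81) and Ccng1 (-0.29). The call of Ccng1 was lost in 8 of the 10 fits that left out a single library, all but those without AdCKO 2 or AdCKO 4 (limma adjusted p = 0.0127 to 0.0203), while at a common total 6 were higher and none lower. Among the immediate early genes the smallest p-values were those of Egr2 (2.21), Jun (1.55) and Fos (1.94), and Ier3 (-0.92) was the gene that fell. Of the other cell type markers, Pecam1 alone of 6 endothelial genes (0.55) and Cd4 alone of 4 tested lymphocyte genes (1.48) were called, both higher. The call of Cd4 was lost without Control 1, 2, 4 or 5 or AdCKO 4 (limma adjusted p = 0.0114 to 0.0163) and after quantile normalization. At a common total 5 of the endothelial genes were higher.

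**Figure D4:**
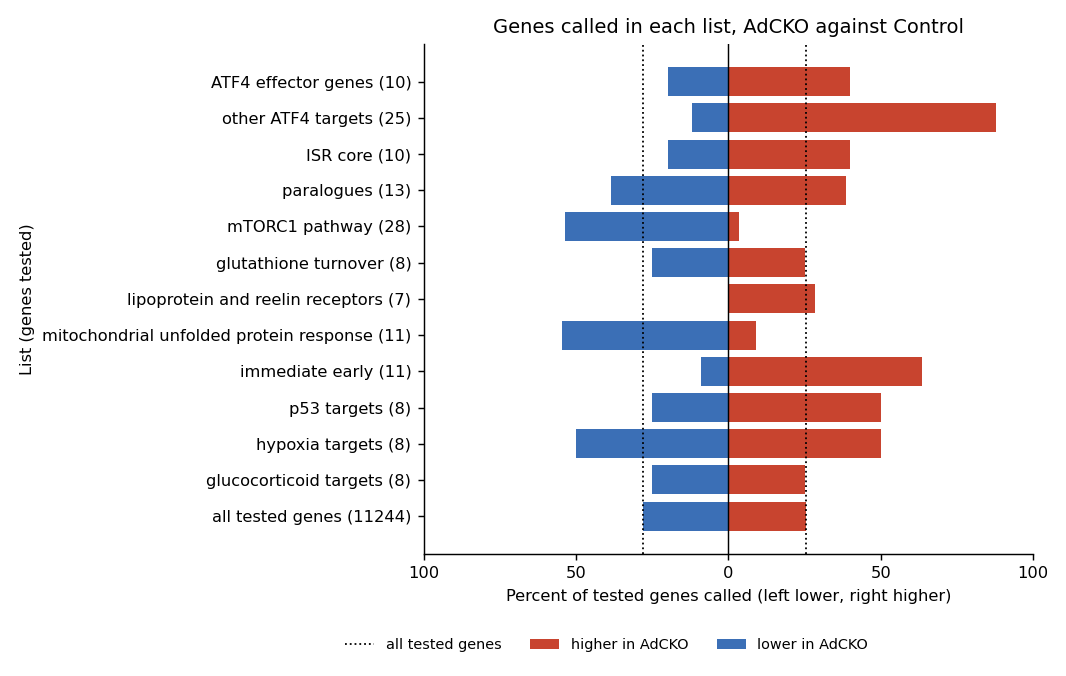
Percent of the tested genes of each list called higher (red, to the right) or lower (blue, to the left) in AdCKO, with the number tested in brackets and dotted lines at the shares of all tested genes, 25.6% higher and 28.0% lower. The other ATF4 targets stand out with 22 of 25 higher, while the 10 effector genes have 4 higher and 2 lower, all under the authors' normalization. Some genes stand in several lists, among them Trib3, Ddit3 and Ppp1r15a.

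The same mice were not high for every effector gene. Among AdCKO libraries, AdCKO 1 had the lowest value for 5 of the 10 genes and lay above the group mean for 1 of them, Sesn2, while AdCKO 3 had the highest value for 4, namely Atf3, Asns, Cebpg and Atf5. Atf3 and Atf5 deviated together, with a correlation of their deviations from the group means of 0.90 over the 10 libraries, the highest among the 10 genes. Sesn2 and Nupr1 had the lowest, -0.67. These coefficients describe points that share libraries and normalization. Chac1 went its own way in AdCKO, being highest in AdCKO 4, where Atf3 and Atf5 were below their means, and lowest in AdCKO 5, where both were above. AdCKO 3 and 5, in which Atf3 was highest, were the libraries with muscle markers near the Control level. With AdCKO 1, 2 and 4 left out the log2 fold change of Atf3 was 4.48. With the skeletal muscle score as a covariate the log2 fold change of Atf3 was 4.45 and that of Chac1 1.53, each still called by limma (adjusted p = 3.82e-09 and 9.69e-06). Outside the list, the tested genes whose deviations followed the mean of the 10 most closely were Slc25a26, a mitochondrial carrier (correlation 0.94 over 10 libraries), Wbp5 (0.94) and Tars, a threonyl-tRNA synthetase (0.94). In AdCKO, Slc25a26 was lower (log2 fold change -0.45) and Wbp5 (1.09) and Tars (0.41) were higher. These 3 genes were picked as the highest correlations among all tested genes outside the 10. The size of their correlations is thus no evidence of a link, and none was tested.

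**Figure D5:**
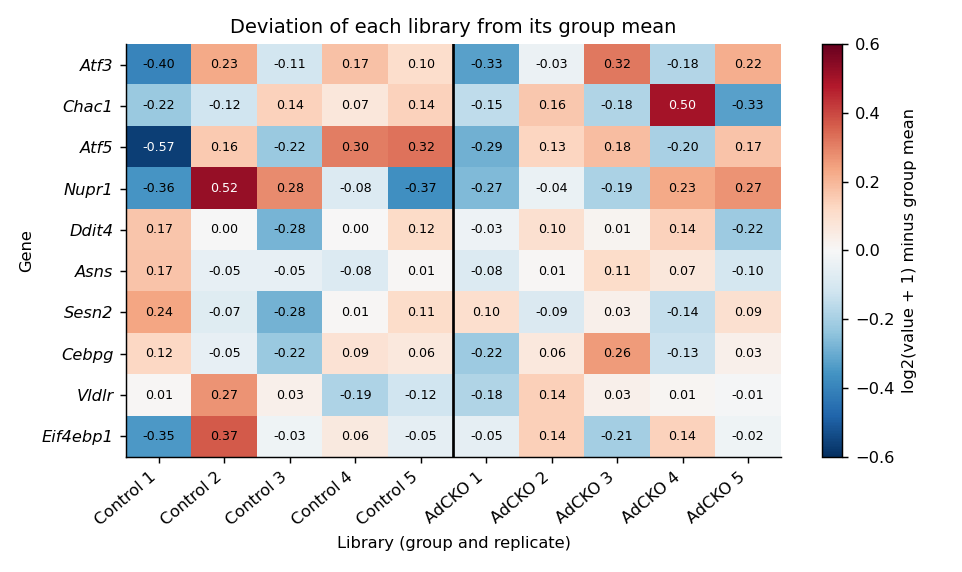
Deviation of log2(value + 1) from the group mean for the 10 effector genes (rows) in each of the 10 libraries (columns), with red above and blue below the mean and the vertical line between the groups. Atf3 and Atf5 share their signs in most libraries, and the deepest red in AdCKO is Chac1 in AdCKO 4, at 0.50.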

How the data were processed

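Polyadenylated RNA from BAT of 5 Control and 5 AdCKO mice was prepared with TruSeq reagents and sequenced. Per the labels and the study's methods, the authors mapped reads to mm9 with STAR, built tag directories with HOMER, used iRNA-seq to count reads over exons, and applied DESeq2 for normalization. The deposited signal is normalized reads per kb of counted exon. None is 0, and how the authors treated zeros is not given in the sources used here. Versions and the strand setting are not given in the sources used here. The raw depth is unknown, so no counting interval was computed. Columns and lists of the authors' own fold changes and p-values were not used.

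The deposited signal + 1 was log2-transformed and fitted with limma 3.58.1 (R 4.3.3, intensity trend, two-sided) in the 11244 of 15075 genes with a mean of at least 10 in a group, without covariates, with Benjamini-Hochberg adjusted p under 0.01 as the threshold. A count test was not run because the values are not counts. Single values and paralogue pairs were compared by exact permutation (scipy 1.17.1), where 5 against 5 gives no p below 0.0079. Of the 13 pairs compared, 1 counted among those past the threshold is not reported here. The fit was first tested on simulated data with known changes. Coordinates are mm9 and 1-based, and promoters were read from NCBIM37 with GENCODE M1. Alternatives were the pseudocount, the filter, the scaling, the trend, a replicate block, a muscle covariate, the threshold and leaving out libraries.

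The 10 genes and the gene lists were chosen with earlier results of these data known. Named genes were the 10 genes, their paralogues, Crls1, up to 3 called genes with the smallest p and up to 2 called genes against the median of each list, and the 3 genes whose deviations were most like the mean of the 10.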

Additional observations from a re-analysis of the deposited data

How the results depend on the processing

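Atf3, Chac1, Atf5 and Nupr1 stayed called higher, and Vldlr and Eif4ebp1 called lower, by limma under each of 22 alternatives, with Eif4ebp1 at -0.40 after quantile normalization and -0.38 at a common total. Scaling the libraries to a common total gave 6811 higher and 1098 lower genes, and 8 of the 10 effector genes were higher, and 0 of the other ATF4 targets were lower. With AdCKO libraries 1, 2 and 4 left out, an alternative chosen after seeing the data, 1 of the other ATF4 targets was lower. Leaving out single libraries gave 2643 to 2887 genes higher and 2880 to 3066 lower, with 4 to 5 effector genes higher and 2 lower throughout, and 21 to 22 of the other ATF4 targets higher and 3 lower. The log2 fold change of Cebpg, near 0, changed sign to 0.455 with the same total, 0.064 with quantile normalization, 0.10 with the muscle score as a covariate and 0.12 without AdCKO 1, 2 and 4, and ranged from -0.088 to 0.031 when single libraries were left out, and that of Sesn2 from -0.019 to 0.111. At an adjusted p under 0.05, Asns and Ddit4 were also called. Ddit4 against Ddit4l had -0.40 with a pseudocount of 10 (exact adjusted p = 0.092), and quantile normalization gave -0.62 for Cebpg against Cebpd (exact adjusted p = 0.093) and 0.48 for Eif4ebp1 against Eif4ebp2 (exact adjusted p = 0.015). The cause was not tested. Replicate numbers gave no sign that they pair the mice, though the correlations cannot exclude pairing. Same-numbered libraries had correlations of deviations of -0.27 to 0.10. The fit with a replicate block called 2592 genes higher and 2838 lower, with 4 and 2 of the effector genes. How the authors treated low values, such as those of Chac1, is not known here, and the unknown raw depth limits what can be said of their error.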

Other observations

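Cebpb, which encodes a C/EBP partner of ATF4, was the most variable of the paralogues among Control mice. Its normalized reads per kb were 1100, 1274, 835.8, 2917 and 2597 in Control 1 to 5 and 1006, 973.8, 1536, 779.3 and 1178 in AdCKO 1 to 5. Control 4 and 5 thus stood above all other libraries, and the groups overlapped. By limma its log2 fold change of -0.54 was not past the threshold (adjusted p = 0.161). Atf4 was also highest among Control mice in Control 4 and 5, at 837.0 and 688.2, and so was Atf5.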
